A study of Mus musculus with 12 samples.

Results

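Arhgef3, Pibf1, Pacsin2, Chst11, Slc22a23 and Gadd45g are 6 mouse genes, among 21627 protein-coding genes of the reference, around which chromatin of embryonic stem cells (ESCs) was listed with more links or more acetylated bins 24 h after induction of a KLF knockout. They were selected on measured values: a higher summed link score at 24 h, or bins with an H3K27ac value at 24 h alone. No threshold was given for the choice, so values just inside and outside it cannot be shown. Both measures between 0 h and 24 h are therefore described without a test, and nothing is supported with them. The measures that did not enter the choice are the peaks of KLF4 and H3K27ac in induced pluripotent stem cells (iPSCs) and the promoter sequences.

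Chromatin immunoprecipitation sequencing (ChIP-seq) of H3K27ac, acetylation of histone H3 at lysine 27, was performed on ESCs of the V6.5 line in 2 replicates at 0 h and 2 replicates at 24 h of doxycycline. The cells of both times carried a lentiviral Cas9 under a doxycycline-driven promoter, and its guides aimed at Klf4, or at Klf4 together with Klf2 and Klf5. The labels call the hand-picked lines clonal and do not state how many were used. The titles of the 0 h samples carry TKO and WT, and those of the 24 h samples TKO and KLF4 KO, which leaves the targeted genes unsettled. ESCs were grown on irradiated feeder cells with serum and LIF, and the sample labels add 2i, a pair of kinase inhibitors that hold cells in the naive state. Feeder cells are usually fibroblasts, whose chromatin may be present. The iPSCs, reprogrammed somatic cells held in 2i, gave 2 KLF4 and 2 H3K27ac replicates, and their sample labels name no knockout. Each group came as 1 list, so no spread between replicates is known. In the ESC lists each 10 kb bin has 1 value in the last column, read as H3K27ac, and 1 unlabelled whole number, called the link score here.

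KLF4 is a zinc-finger transcription factor that, with KLF2 and KLF5, holds mouse stem cells in the naive state, and it binds GC-rich and CACCC-like DNA. H3K27ac marks active enhancers and promoters, and enhancers contact promoters by looping of the chromatin between them. The 6 genes do not form a pathway. Arhgef3 encodes a guanine nucleotide exchange factor that switches on the small GTPase RhoA. Pibf1 encodes a protein of centriolar satellites needed to build cilia. Pacsin2 encodes an F-BAR protein that bends membranes in endocytosis and at caveolae. Chst11 encodes a Golgi enzyme that adds sulfate to chondroitin. Slc22a23 encodes an orphan member of the SLC22 family of organic ion transporters, and Gadd45g a small protein induced by stress and growth arrest.

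The lists do not say what the link score counts. Its sum was even on 20 of 20 chromosomes at 0 h and on 20 of 20 at 24 h. A number of links with both ends on 1 chromosome, entered at each end, must have an even sum, and no odd sum was found. Over all bins the score came to 186496 at 0 h, from 49460 bins, and 168512 at 24 h, from 47307, which gives 0.904 as the ratio of the totals. Read depth is unknown. As a check of the cell type, all 8 pluripotency markers examined (Pou5f1, Sox2, Nanog, Esrrb, Zfp42, Sall4, Tdgf1 and Dppa4) had a bin with an H3K27ac value at both times. Their summed score was 395 and 346. Of 8 fibroblast markers, Col1a1 and Col3a1 had one at each time, Thy1 had a score of 3 and 0, and Col1a2, Twist2, Postn, Lum and Dcn had a link score of 0. The summed score of the fibroblast list was 14 at 0 h and 7 at 24 h.

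Promoter sequences from RefSeq (GRCm38.p6, the primary assembly of mm10) are shown for 4 members, to set promoters in bins with a higher score at 24 h beside promoters in bins with an equal one. RefSeq gave 11 promoters for the 6 genes, each of 250 bases before and 50 after a start. Each is printed 5′ to 3′ on the strand of its gene. Capitals mark matches to GGGNGNGG or its reverse CCNCNCCC, a GC-box pattern of the kind KLF and SP proteins read, with overlapping matches joined.
Chst11, chr10:82985247-82985546, plus strand: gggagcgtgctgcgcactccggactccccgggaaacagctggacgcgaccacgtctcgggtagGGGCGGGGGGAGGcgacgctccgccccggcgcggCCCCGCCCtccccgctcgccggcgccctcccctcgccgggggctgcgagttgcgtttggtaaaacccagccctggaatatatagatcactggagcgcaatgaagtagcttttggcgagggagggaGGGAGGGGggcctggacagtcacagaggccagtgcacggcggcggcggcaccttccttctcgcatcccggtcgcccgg
Gadd45g, chr13:51846425-51846724, plus strand: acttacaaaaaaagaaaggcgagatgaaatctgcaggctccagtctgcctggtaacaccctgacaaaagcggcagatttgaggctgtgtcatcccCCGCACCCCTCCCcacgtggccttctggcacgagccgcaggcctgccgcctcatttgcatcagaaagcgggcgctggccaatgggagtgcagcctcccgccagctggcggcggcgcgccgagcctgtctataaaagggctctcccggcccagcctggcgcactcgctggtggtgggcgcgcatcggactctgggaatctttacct
Pacsin2, chr15:83464557-83464856, minus strand: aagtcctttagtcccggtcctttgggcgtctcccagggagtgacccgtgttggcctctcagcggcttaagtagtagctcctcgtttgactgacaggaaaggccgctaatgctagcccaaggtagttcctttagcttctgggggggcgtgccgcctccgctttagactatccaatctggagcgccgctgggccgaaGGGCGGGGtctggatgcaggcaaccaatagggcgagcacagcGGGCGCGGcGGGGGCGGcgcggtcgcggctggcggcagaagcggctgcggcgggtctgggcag
Slc22a23, chr13:34345169-34345468, minus strand: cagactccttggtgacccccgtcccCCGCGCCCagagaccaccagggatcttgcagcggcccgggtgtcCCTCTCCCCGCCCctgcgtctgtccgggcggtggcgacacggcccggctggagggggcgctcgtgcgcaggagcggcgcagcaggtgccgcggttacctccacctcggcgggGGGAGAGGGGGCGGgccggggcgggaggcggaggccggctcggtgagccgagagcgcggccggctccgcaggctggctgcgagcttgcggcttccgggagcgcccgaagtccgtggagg
The pattern occurred 4 times in the Chst11 promoter, 2 times at Gadd45g, 3 times at Pacsin2 and 5 times at Slc22a23. It was present in 7 of the 11 member promoters and in 49.5% of all 32851 promoters of equal length. A KLF4 peak of iPSCs lay on the promoters of Chst11 (chr10:82985263-82985414) and Pacsin2, where 2 peaks met it, and on 15.7% of all promoters. The Gadd45g promoter had its nearest KLF4 peak 2449 bases away, and Slc22a23 had no KLF4 peak within 5 kb. The bin of the Chst11 promoter was unlisted at 0 h and scored 3 at 24 h, and that of Gadd45g went from 3 to 11. The bins of the printed Pacsin2 promoter and of the Slc22a23 promoter stood at 6 and 6 and at 1 and 1. Pacsin2 has 2 further promoters inside the gene, without a KLF4 peak, in bins that went from 3 to 7 and from 6 to 9. Pibf1, with 1 match, had no KLF4 peak on its promoter, and its bin score was 8 at both times. The 4 promoters of Arhgef3 had no KLF4 peak either, in bins with 3 and 3, 1 and 2, 3 and 5, and 3 and 4. Among the 11 promoters, a KLF4 peak was thus found on 1 in a bin that gained (Chst11) and 1 in a bin that did not (the printed one of Pacsin2). The other promoters, in gaining and in equal bins, held none. The tally is of the 300-base promoters and not of their bins. The promoter bin of Gadd45g, from 51840001, held a KLF4 peak off the promoter itself. The bin at the 5′ end of the Arhgef3 span, from 27110001, contains none of the 11 promoters. It held 1 KLF4 peak, went from 3 to 8 and had an H3K27ac value at 24 h alone.

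Summed over each gene and 10 kb on each side, the link score of all 6 genes was higher at 24 h. The members together had 286 before induction and 524 after it, 1.83 times as much. Among the 9991 protein-coding genes with a score of at least 10 over both times, 32.3% had more at 24 h, and the median ratio was 0.929. A ratio of at least 1.5 was reached by 5 of the 6 members and by 7.51% of those genes. This contrast chose the members, so these counts describe the choice. Of the 97 bins around the members, 79 had a higher score at 24 h, 3 a lower one and 15 the same. Of all 54825 bins, 27% had more at 24 h and 42.2% had less. A gain of 5 or more was seen in 16 of the 97 bins, against 0.381% of all bins. A loss of 5 or more was seen in 0 of the 97. Such losses were not counted over all bins, so this 0 has no share to be read against. Shares below carry exact (Clopper-Pearson) 95% intervals for counting error alone. They treat entries as independent, but a link with both ends in 1 window counts at both, so they may be too narrow. Because the members were picked on these scores, the intervals do not test a difference between the times.

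**Figure D1:**
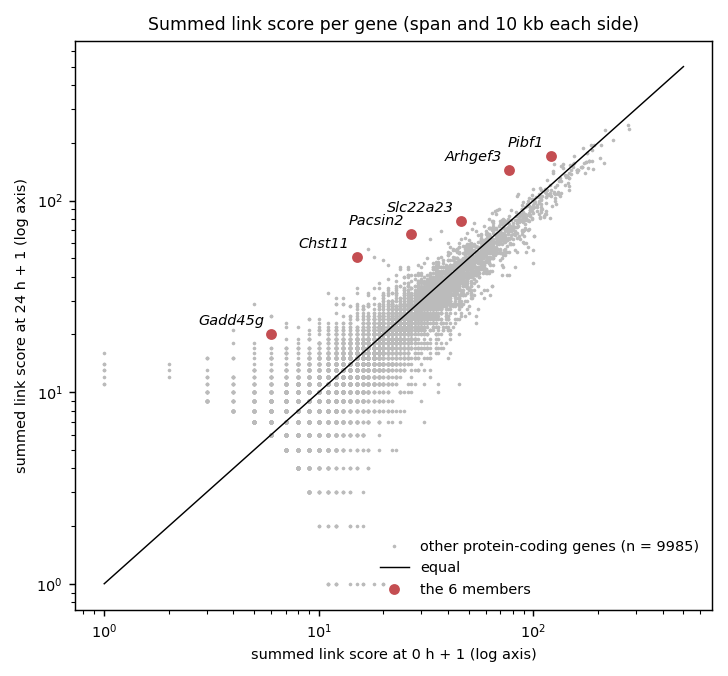
Summed link score at 0 h (horizontal) and 24 h (vertical) for each protein-coding gene with a both-time score of at least 10, with 10 kb on each side, both plus 1 on log axes; grey points are the other genes, red points the 6 members and the line marks equal scores. All 6 members lie above the line, from Gadd45g (5 and 19) to Pibf1 (120 and 169).

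Arhgef3 (gene 71704, chromosome 14, 27114461 to 27403916) is the longest member at 289 kb. The score was 76 before and 143 after induction, so 65.3% (58.6 to 71.6) of the score of both times was at 24 h. The ratio was 1.88. Of its 31 bins, 26 gained, 5 were equal and 0 lost, with a mean difference of 2.16 (SD 2.11 over bins). The bins from 27250001 and 27260001 went from 1 to 10 and from 3 to 9. They adjoin the strongest bin, from 27270001, which had 14 and 18. A bin nearer the 5′ end, from 27150001, went from 2 to 9 and held 2 KLF4 peaks in iPSCs. The gene also had 7 bins that were unlisted at 0 h and scored 1 or 2 at 24 h. The gain therefore covered the gene body rather than 1 bin, and its largest step lay beside a bin that was already linked.

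Pibf1 (gene 52023, chromosome 14, 99099424 to 99254899) had the highest scores, 120 at 0 h and 169 at 24 h, and 58.5% (52.6 to 64.2) of the total was at 24 h. The ratio of 1.41 was the lowest of the 6. Scores were higher in 13 of 19 bins and lower in 3, with a mean difference of 2.58 (SD 4.13). The bin from 99200001 went from 3 to 16, the bin from 99230001 from 5 to 13 and the bin from 99210001 from 3 to 10. These 3 bins lie in the 3′ part of the gene, towards Klf5, which encodes one of the factors named as a target. The span of Dis3 (an exosome nuclease) overlaps the start of Pibf1 in the bin from 99090001, which had 8 and 8. The next bin, from 99100001, lies beyond Dis3 and had 8 and 4. Dis3 itself had 39 and 32, Bora, an activator of mitotic kinases, 46 and 40, and Mzt1, a gamma-tubulin complex protein, 24 and 22. The scores around Klf5 were 54 and 65, and in the 100 kb beyond Pibf1 the bin from 99340001 had 30 and 36.

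Pacsin2 (gene 23970, chromosome 15, 83375607 to 83464610) had 26 before and 66 after induction, 2.54 times as much, with 71.7% (61.4 to 80.6) at 24 h. Of its 11 bins, 9 gained and 2 were equal. The bin from 83450001, next to the main promoter, went from 3 to 11, and the promoter bin itself stayed at 6. The difference did not end at the gene. Around Ttll1, which encodes a tubulin glutamylase and lies upstream, the score was 5 and 24, with 1 bin shared with Pacsin2. Further out on that side, Bik (a pro-apoptotic BH3-only protein) had 5 and 9, Mcat, a mitochondrial enzyme of fatty acid synthesis, 9 and 14, and Tspo, a mitochondrial outer membrane protein, 11 and 19. On the other side, Arfgap3, a regulator of Golgi traffic, had 56 and 53. Outside the gene, the higher scores thus lay on the promoter side.

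Chst11 (gene 58250, chromosome 10, 82984440 to 83195904) had 14 before and 50 after induction, 3.57 times as much, with 78.1% (66.0 to 87.5) at 24 h. No bin scored above 3 at 0 h, and the highest at 24 h was 7, in the bin from 83030001. Of 15 bins, 14 gained and 1 was equal, with a mean difference of 2.40 (SD 1.24), and 8 of them were unlisted at 0 h. The steps were many and small. At Chst11 0 bins gained 5 or more, and at Pibf1 6 did. Its neighbours were Txnrd1 (thioredoxin reductase), with 39 and 44, and Slc41a2, a magnesium transporter, with 12 and 19.

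Slc22a23 (gene 73102, chromosome 13, 34179158 to 34345275) had 45 and 77, a ratio of 1.71, with 63.1% (53.9 to 71.7) at 24 h. Gains were seen in 15 of 18 bins and losses in 0. The bin from 34230001 went from 3 to 9, the bin from 34240001 from 8 to 11 and the bin from 34290001 from 6 to 10. These 3 bins lie inside the gene, far from its promoter bin, which scored 1 at both times. The downstream neighbours had similar scores at both times, 22 and 25 around Psmg4 (a proteasome assembly chaperone, with 2 bins shared) and 45 and 40 around Tubb2b (a neuronal beta-tubulin).

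Gadd45g (gene 23882, chromosome 13, 51846675 to 51848475) is a gene of 1.80 kb, and its window holds 3 bins. They scored 5 before and 19 after induction, 3.80 times as much, with 79.2% (57.8 to 92.9) at 24 h, an interval wide because the scores are few. The promoter bin went from 3 to 11 and the next bin from 1 to 7. Within 100 kb the score was 25 and 65. The bins from 51860001, 51880001 and 51890001 went from 1 to 6, from 1 to 5 and from 1 to 5. The bin from 51900001, about 50 kb away, had 10 at both times and the highest H3K27ac value of the region, 5.91 and 6.22. The gains lay on the 3′ side of Gadd45g, and Sema4d (a semaphorin), on the other side, had 12 and 12.

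**Figure D2:**
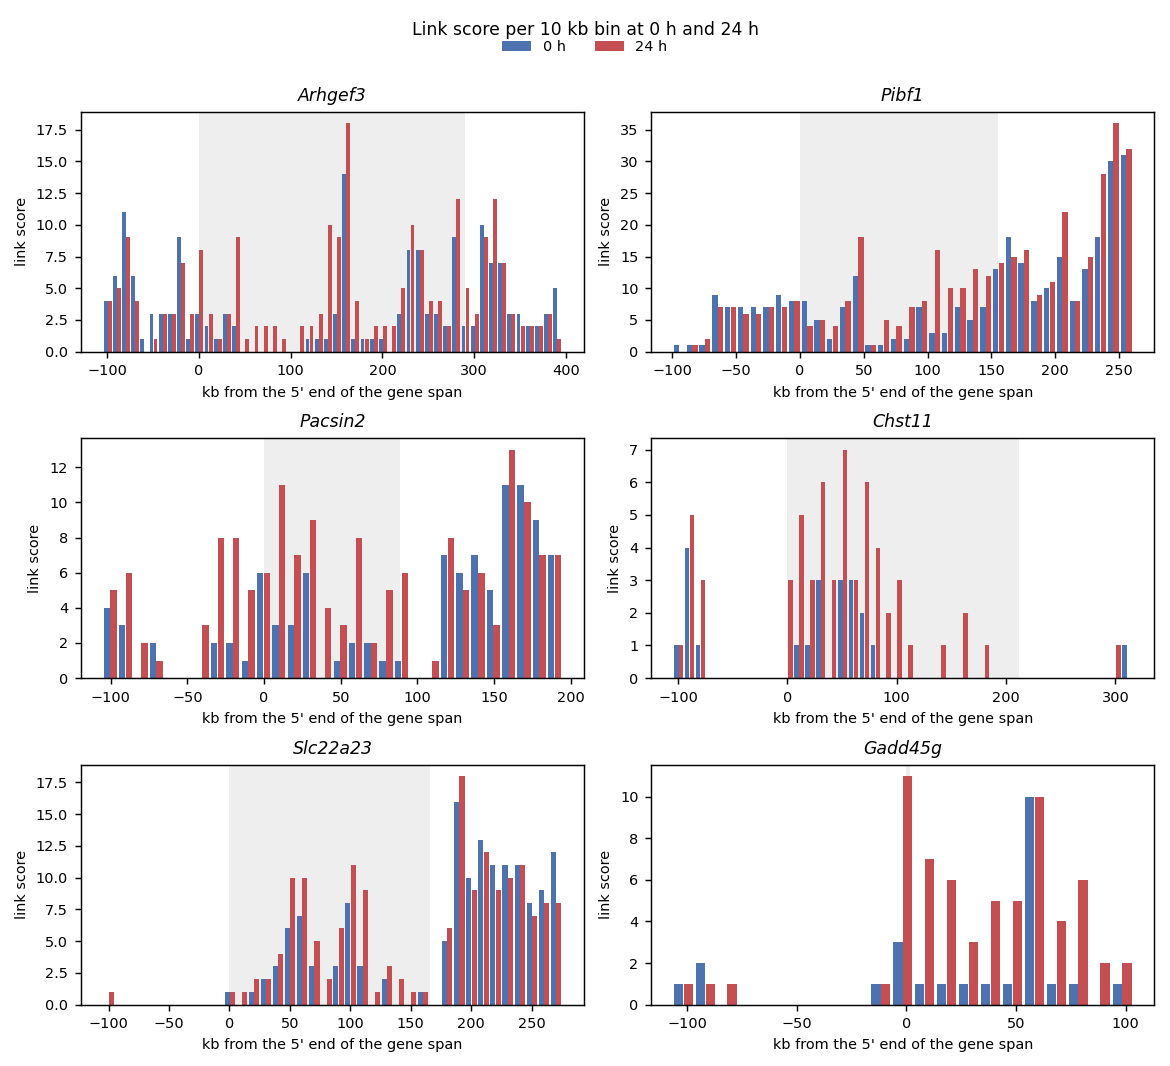
Link score (vertical) of each 10 kb bin at 0 h (blue) and 24 h (red) against the distance in kb from the 5′ end of the gene span (horizontal, in the direction of transcription), for each member and 100 kb on each side; grey marks the gene and a bin without a bar is unlisted. Gains extend along the gene body of Arhgef3 and lie mostly in the 5′ part of Chst11, whose 3′ part has few listed bins. They also lie in the 3′ part of Pibf1 and at the promoter and 3′ side of Gadd45g, where the promoter bin went from 3 to 11.

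In part of the set the gain lay on the genes rather than around them. The members were picked on these scores, so this contrast of gene and flanks partly describes the choice. In the bins between 10 and 100 kb from the gene, the score was 88 at 0 h and 77 at 24 h around Arhgef3 and 101 and 93 around Slc22a23, so there it was lower at 24 h. It was 187 and 213 around Pibf1, 76 and 93 around Pacsin2 and 7 and 10 around Chst11. Gadd45g had 20 and 46, a ratio of 2.30. Arhgef3 and Slc22a23 therefore gained within the gene and its near flanks, and Gadd45g gained across the wider region. Il17rd, an antagonist of FGF signalling next to Arhgef3, had 46 and 43, and Tasor, a subunit of the silencing complex HUSH, 39 and 43. Ccdc66, which encodes a protein of cilia and microtubules, had 14 and 9.

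H3K27ac was described on the same windows, with values as deposited and, for bins valued at both times, as the log2 of 24 h over 0 h relative to the median of all 22739 such bins (-0.23). That median is a shift of all bins, and the scaling between the lists is not known. Among the 97 bins, 31 had a value at both times, 22 at 24 h only, 1 at 0 h only and 43 at neither. Over all 54825 bins, 22739 had a value at both times and 2872 at 24 h only. In all, 26812 had a value at 0 h and 25611 at 24 h, so bins valued at 0 h only were the more numerous. At least 1 bin valued at 24 h only was present in all 6 members and in 19.5% of the 9991 genes, and 2 or more in 5 members and 3.83% of genes. A window with more bins has more room for such a bin, and the genes were not matched for this. The windows held 11 to 31 listed bins, except that of Gadd45g, with 3. The mean relative value was above 0 in all 5 members with a bin valued at both times, each with at least 4 such bins, against 54.3% of the genes with 3 or more. Single bins were above the median in 30 of 31. These values belong to the contrast that chose the members.

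Slc22a23 had the highest mean relative value, 0.86 (SD 0.57 over 7 bins). Its bin from 34240001 had 3.54 at 0 h and 7.52 at 24 h, the next from 34250001 had 3.30 and 7.52, and the pair from 34280001 had 4.04 and 7.47. At the promoter bin the value was 5.13 and 4.57. The higher acetylation thus lay in the gene body, in bins whose link score was also higher. Only 2 bins of Slc22a23 were valued at 24 h alone. Tubb2b, downstream, had a mean relative value of -0.28 (SD 0.36 over 4 bins).

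Chst11 had a mean relative value of 0.71 (SD 0.19 over 4 bins). Its strongest bin, from 83050001, had 5.10 at 0 h and 7.73 at 24 h, and the bin from 83030001 had 2.33 and 3.39. A further 6 bins had a value at 24 h only, from 2.64 to 4.12, and 5 of these were unlisted at 0 h. No bin of the gene was valued at 0 h only, and its valued bins thus went from 4 to 10.

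Pibf1 had a mean relative value of 0.51 (SD 0.18 over 10 bins), with 4.57 and 6.23 in the bin from 99150001. Its 3 bins valued at 24 h alone had 2.92 to 4.39. At the promoter it had 5.02 and 5.08, which is above the shift of all bins but nearly equal as deposited. Klf5 had a relative value of 0.43 (SD 0.32 over 5 bins).

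Arhgef3 had a mean relative value of 0.32 (SD 0.23 over 5 bins) and the most bins valued at 24 h alone, 8, in 5 runs of equal value, with values from 2.73 to 3.69. The bins from 27250001 and 27260001, described above for their score, shared a value of 3.51 at 24 h and had none at 0 h. The strongest bin, from 27270001, had 7.04 and 7.95. The bin from 27130001 was the only one of the 97 with a value at 0 h alone, 2.43. Its neighbours Il17rd and Tasor had relative values of -0.15 and -0.37 (SD 0.51 and 0.29 over 3 bins each).

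Pacsin2 had the lowest mean relative value, 0.13 (SD 0.17 over 5 bins), and as deposited its values were mostly lower at 24 h. The bins had 4.75 and 4.30 from 83440001, 4.60 and 3.94 from 83400001 and 3.38 and 2.85 at the promoter, while the bin from 83370001 had 3.75 and 4.24. Without the centring its mean was -0.10, so the direction depends on the scaling. Its 1 bin valued at 24 h alone, from 83450001, had 2.44 and the largest gain in score of the gene. Pacsin2 thus had a ratio of scores of 2.54 with H3K27ac values close to the shift of all bins.

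Gadd45g had no bin valued at 0 h in its window. At 24 h the promoter bin had 3.82 and the next bin 2.56, and the bin from 51860001, outside the window, had 3.66. All 3 were listed at 0 h, with a score of 1 to 3 and no value. Within 100 kb, 5 bins were valued at 24 h alone and 0 at 0 h alone. The only bin valued at both times in that range was the one from 51900001.

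**Figure D3:**
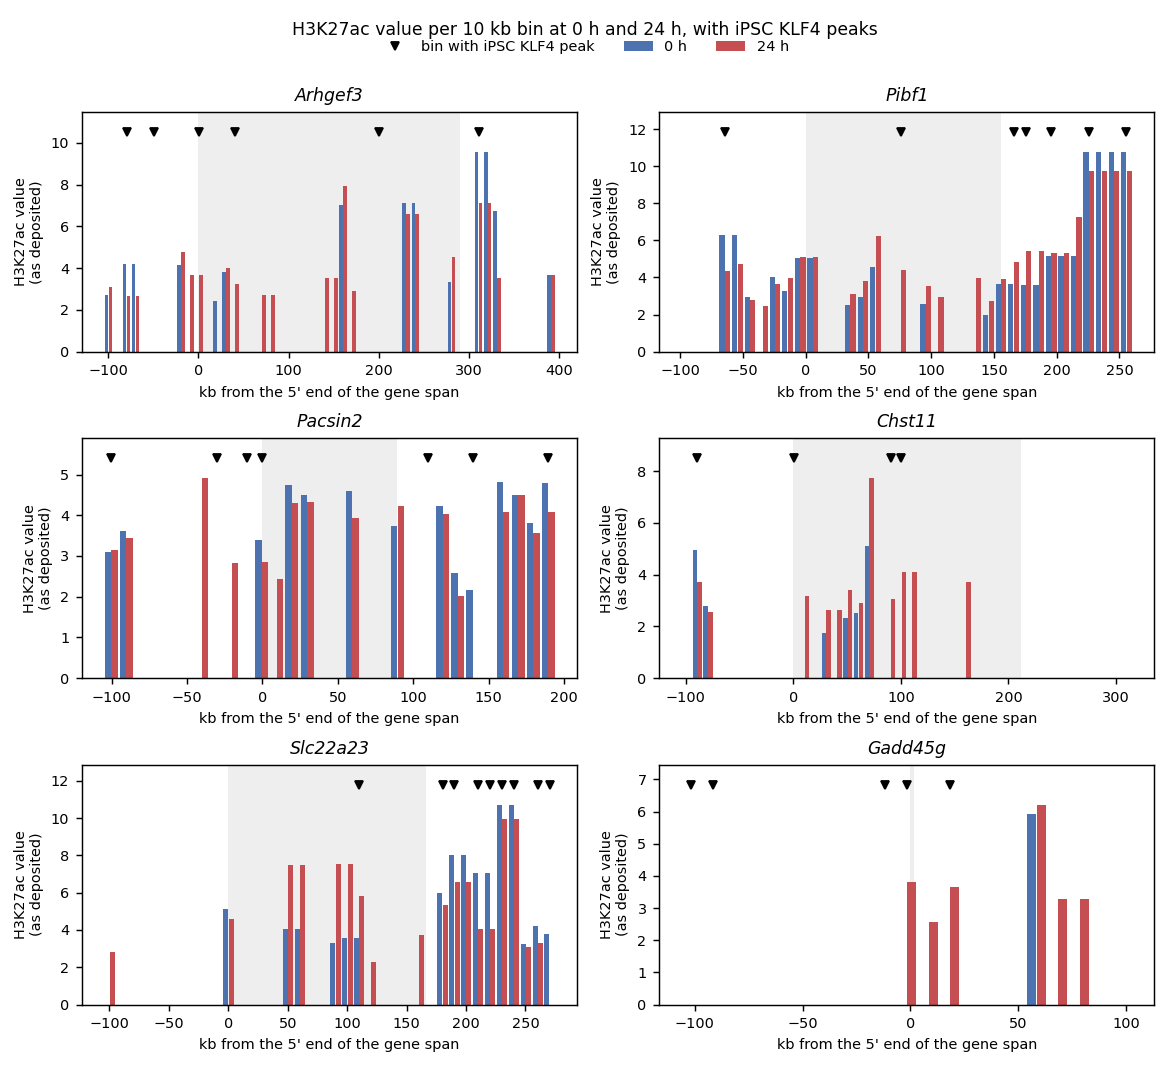
H3K27ac value as deposited (vertical) of each 10 kb bin at 0 h (blue) and 24 h (red) against the distance in kb from the 5′ end of the gene span (horizontal), for each member and 100 kb on each side; a missing bar is a bin without a value, grey marks the gene and triangles mark bins with an iPSC KLF4 peak. Red bars without a blue partner are most frequent in Arhgef3 (8 bins) and Chst11 (6 bins) within 10 kb of the gene, and the KLF4 triangles near Slc22a23 lie mostly downstream of the gene.

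The score difference was split by the H3K27ac class of the bin. Over the members, the 22 bins valued at 24 h alone went from 30 to 127 and held 40.8% of the difference. The 31 bins valued at both times went from 194 to 257 (26.5%), and the 43 bins valued at neither time from 61 to 139 (32.8%). The genes differed in this split. Slc22a23 had 20 of its 32 in bins valued at both times, and Pacsin2 18 of 40. Arhgef3 had 36 of 67 and Pibf1 23 of 49 in bins valued at 24 h alone, and Gadd45g all 14. Bins valued at neither time gave 21 of 49 at Pibf1 and 22 of 67 at Arhgef3, so part of the gain lay in bins with no H3K27ac value of their own.

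**Figure D4:**
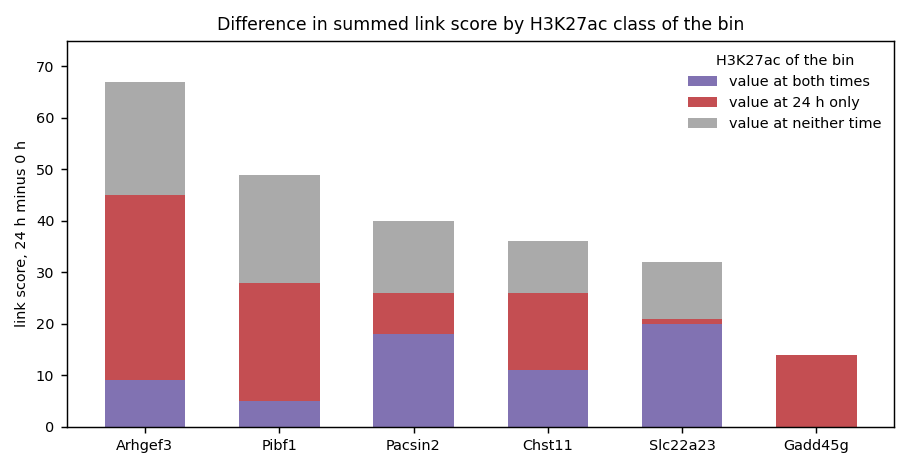
Summed link score of 24 h minus 0 h for each member (bars, gene and 10 kb on each side), stacked by whether the bin had an H3K27ac value at both times (purple), at 24 h only (red) or at neither time (grey); the 1 bin valued at 0 h only differed by 0 and is not drawn. The red part is 36 of 67 for Arhgef3 and all 14 for Gadd45g, and the purple part is 20 of 32 for Slc22a23.

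KLF4 peaks of iPSCs, which the choice did not use, were counted next. The 6 windows held 18 KLF4 peaks: 6 at Chst11, 4 at Arhgef3, 4 at Pacsin2, 2 at Pibf1, 1 at Slc22a23 and 1 at Gadd45g. Per 100 kb of window this ranged from 0.537 at Slc22a23 to 4.59 at Gadd45g, and 4 of the 6 lay below the median of 2.75 over the 9991 genes (quartiles 0.562 and 5.13). With 1 peak in a short window, the density of Gadd45g rests on that peak. Over 100 kb on each side, Slc22a23 had 12 KLF4 peaks, of which 1 lay within its window. The peaks of iPSC H3K27ac numbered 46, with 15 at Chst11, 12 at Pacsin2, 9 at Arhgef3, 5 at Slc22a23, 4 at Pibf1 and 1 at Gadd45g. The lowest density was 2.28 per 100 kb, at Pibf1, and 5 of the 6 lay below the all-gene median of 7.42 (quartiles 3.26 and 14.7), Pacsin2 being the exception. The genes behind both medians were not matched for length, and the members other than Gadd45g span 89.0 to 289 kb. These counts therefore do not show that the members hold few peaks for genes of their length.

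Bins that touch the windows were compared with and without KLF4. Whole bins were used, so a peak just outside a window could enter. Slc22a23 and Gadd45g each had 1 peak in the window and 2 KLF4 bins. Over all members the 14 bins with a KLF4 peak went from 45 to 84, a ratio of 1.87, and the 83 others from 241 to 440, a ratio of 1.83. Over all ESC bins the ratios were 0.844 with KLF4 and 0.938 without. With 1 list per time this difference has no test. Pibf1 had 20 and 19 in its 2 KLF4 bins and 100 and 150 in the others. The 3 KLF4 bins of Chst11 were all unlisted at 0 h and scored 8 at 24 h.

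Of the 22 bins valued at 24 h alone, 6 (27.3%) held a KLF4 peak, against 15.3% of all 2872 such bins, and 5 (22.7%) held an iPSC H3K27ac peak, against 28.8%. Of these 5, 4 were in Chst11 and 1 in Gadd45g. The Chst11 bin from 83070001 held 4 KLF4 and 2 H3K27ac peaks and had a value of 3.06 at 24 h, and the next bin held 1 and 2. The 8 such bins of Arhgef3 held no iPSC H3K27ac peak, and 2 of them held KLF4. Of the 6 bins of Chst11 valued in ESCs at 24 h alone, 4 thus held an H3K27ac peak in iPSCs, whose labels name no editing. Such a peak was in 9 of all 15 bins of Chst11, so this is not particular to its 24 h-only bins. In Arhgef3, 4 of all 31 bins held one. Of the unlabelled marks in the 5 columns between score and value, the column 5 mark was on 2 bins, both of Gadd45g (2.06% of the 97, against 2.84% of all bins). The column 8 mark was also on 2 bins, both of Chst11 (2.06%, against 3.55%). Marks of column 7 were on 11 of the 97 bins (11.3%, against 10.8% of all bins), and those of columns 6 and 9 on 0.

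Genes of related function were counted beside the members, and each count reads against the 32.3% of all genes that were higher at 24 h. Among RhoA exchange factors other than Arhgef3, 2 of 12 with enough score were higher at 24 h and 7 lower, with a median ratio of 0.934 against 0.929 over all genes. By score at 0 h, the leading ones were Arhgef18 (78 and 78), Ect2 (65 and 60), which drives cytokinesis, Arhgef2 (41 and 36) and Arhgef25 (35 and 21). Of 4 centriolar satellite genes other than Pibf1, 1 was higher and 2 lower. The scaffold gene Pcm1 had 49 and 25. Of 7 other F-BAR genes, 3 were higher and 4 lower (median ratio 0.885), with 93 and 78 at Fnbp1, 26 and 23 at Srgap2 and 19 and 15 at Fcho2. Pacsin1, a neuronal paralog of Pacsin2, had 5 and 14.

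Of 3 other genes for chondroitin and dermatan sulfate, 1 was higher and 2 lower, with 56 and 57 at Chst3, 55 and 53 at Dse and 13 and 6 at Csgalnact1. The 2 SLC22 genes with enough score, Slc22a20 (46 and 47) and Slc22a17 (41 and 43), were both higher, by 1 and 2. In the list of GADD45 and stress genes, 6 of 11 were higher and 4 lower, with a median ratio of 1.04. Its leading members were Sesn2 (38 and 41), Trp53 (34 and 26), Cdkn1a (30 and 27) and Gadd45b (26 and 27). Gadd45a, with 2 and 4, had too little score to enter. Outside the members, the genes of these 6 lists with enough score and a ratio of at least 1.5 were Pacsin1 and Mib1 (5 and 11), a satellite ubiquitin ligase, and 7.51% of all genes had such a ratio. The lists are short, and nothing particular to them is read from these counts.

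The gene that shared no bin with a member and had the nearest summed scores, by the distance of log2 of score plus 1 over both times, was Snx29 for Slc22a23 (45 and 74), Rbm20 for Pibf1 (124 and 155) and Pcx for Chst11 (16 and 55). It was Btbd7 for Gadd45g (6 and 18), Tmem108 for Pacsin2 (32 and 62) and Pip5k1b for Arhgef3 (84 and 107). The distance was 0.0566 for Slc22a23 and 0.439 for Arhgef3, the least matched. With 2 times, likeness is that of 2 numbers.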

How the data were processed

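The authors deposited 4 lists, which stand for 12 ChIP-seq samples in 7 groups including inputs. Bowtie2, SAMtools, bedtools and MACS2 are named with mm10, per the submitters' processing notes, without versions. No label states how replicates were combined. The deposited ESC lists hold 10 kb bins with a whole-number count (the link score, meaning not stated), 5 columns of marks read as a score of 0, 1 or 2, and an H3K27ac signal whose normalization is not given. The deposited iPSC lists hold peak positions only.

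The members and gene lists were chosen with earlier results of these data known. RefSeq spans (GRCm38.p6) with 10 kb flanks were joined to every bin or peak overlapping by 1 bp, and an unlisted bin added 0. Named genes were the members, protein-coding neighbours within 100 kb, the gene of nearest scores, and up to 4 members by 0 h score of 6 lists, all of whose symbols were matched. Pacsin1, Mib1 and Gadd45a were named after their values were seen. No test was possible with 1 list per group. Sums were checked on simulated data. Python 3.11.15, numpy 2.4.6, pandas 2.3.3, scipy 1.17.1 and matplotlib 3.10.9 were used.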

Additional observations from a re-analysis of the deposited data

How the results depend on the processing

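The 6 members kept a higher summed score at 24 h under each of the 9 alternatives run (flanks, bins by centre, scaling, bins listed at both times, the most changed bin left out, bins of other genes left out). The members were picked on this score or on 24 h-only bins of the same lists, so the direction was largely set by the choice. The 24 h share of their summed score was 64.7% and moved to 61.1% with 50 kb flanks, 58.0% with 100 kb flanks and 68.1% without Pibf1. It was 65.5% without bins that other genes touch, an alternative added after the data had been seen, as was leaving out each gene. The 24 h-only bins numbered 22, and 20 to 29 under the alternatives. Relative H3K27ac reversed for Pacsin2, to -0.10, when values were not centred, since centring adds the shift of all bins. Without centring it also fell from 0.51 to 0.29 at Pibf1, from 0.71 to 0.48 at Chst11, from 0.32 to 0.09 at Arhgef3 and from 0.86 to 0.63 at Slc22a23. With 100 kb flanks it moved to 0.05 at Arhgef3 and to 0.46 at Chst11. With peaks wider than the median, the density fell to 0.871 KLF4 and 2.32 H3K27ac peaks per 100 kb from 1.74 and 4.45, as fewer peaks were used. With a minimum score of 30, 30.8% of genes were higher at 24 h, in place of 32.3%. No paired analysis was possible because no list holds values per replicate, and leaving out a replicate was not run for the same reason. Depth is unknown, and small scores, as at Gadd45g, limit precision.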
